A study of Mus musculus with 18 samples.

Results

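The mouse Ugt1a cluster is a stretch of chromosome 1 from which a family of UDP-glucuronosyltransferases is made, enzymes that attach glucuronic acid to bilirubin, steroids, drugs and other fat-soluble molecules. Its members were taken as all genes whose symbol begins with Ugt1a, which gave 9 of the 55385 genes in the count tables: Ugt1a1, Ugt1a2, Ugt1a5, Ugt1a6a, Ugt1a6b, Ugt1a7c, Ugt1a8, Ugt1a9 and Ugt1a10. The family was selected on the estimated counts of Ugt1a6a and Ugt1a6b, which stood out between the genotypes at postnatal day 21 (P21), so values at that age are a description without a test.

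Each enzyme of the cluster is specified by its own first exon and promoter, and all of them splice into one common set of downstream exons. The unique first exon gives the substrate-binding part, and the common exons give the part that binds the sugar donor. Ugt1a1 is known as the bilirubin enzyme of the liver and Ugt1a6 enzymes as conjugators of small phenols, and the aryl hydrocarbon receptor and NRF2 are known inducers of the locus.

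Hippocampus came from C57BL/6 mice with a conditional knockout of Arid1a (cKO) or from wild-type (WT) mice. The Arid1a protein belongs to the BAF complex, an ATP-driven remodeller of nucleosomes. RNA-seq covered 2 cKO and 2 WT libraries at P21 and 3 cKO and 3 WT libraries at embryonic day 16.5 (E16.5), described as biological replicates, and ChIP-seq for H3K4me3, H3K27ac and H3K27me3 had 1 library per genotype at 3 weeks of age. The labels name no Cre driver, and therefore not the cells in which Arid1a was deleted, and they do not say whether the WT animals carried floxed alleles or Cre.

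The deposited estimated counts of a library totalled 20089631 to 20332148 at P21, against 17662335 to 19760764 in the embryonic libraries. Arid1a had 2281 and 1778 estimated counts in cKO and 4291 and 4089 in WT at P21, and 3210, 3100 and 3527 in cKO and 4983, 5489 and 5560 in WT at E16.5. Its log2 change was -1.08 ± 0.13 (SE, adjusted p = 0.00507) at P21 and -0.64 ± 0.06 (SE, adjusted p = 0.032) at E16.5 in edgeR's quasi-likelihood test, so every library sat on the side its label gives. The 8 markers of hippocampal neurons summed to 1169 and 1440 CPM (counts scaled to library size) in cKO and 1191 and 1221 CPM in WT at P21, and to 1155 to 1305 CPM in cKO and 1293 to 1654 CPM in WT at E16.5. Within that list at P21, C1ql2 (log2 change -2.14) and Prox1 (-1.86), markers of the dentate gyrus, were called lower in cKO, and Wfs1 (1.12) and Bok (0.77) higher. Xist, the RNA of the inactive X chromosome, was low in replicate 1 of both genotypes at P21 and in replicate 3 of both at E16.5 (7.26 to 36.7 estimated counts), and at 3572 to 9159 in all other libraries.

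The members lie on the plus strand of GRCm38, from the start of Ugt1a10 at chr1:88055411 to the common end at chr1:88220002, a span of 164592 bp. Going along the strand, the starts follow in the order Ugt1a10, Ugt1a9, Ugt1a8, Ugt1a7c, Ugt1a6b, Ugt1a6a, Ugt1a5, Ugt1a2 and Ugt1a1, the last at chr1:88211959. The start of Ugt1a6b is at chr1:88103257 and that of Ugt1a6a at chr1:88134809. The span also holds 7 other annotated genes, which are 6 pseudogenes and Dnajb3, a gene of the DnaJ co-chaperone family on the minus strand between the starts of Ugt1a2 and Ugt1a1.

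RefSeq promoter sequences (GRCm38.p6, 250 bases before to 50 after the start) were at hand for 8 of the 9 members, with none for Ugt1a6b. Ugt1a6a is shown because it was assigned most of the cluster's counts at P21, Ugt1a7c because it also passed the filter on low counts at that age, Ugt1a1 as the bilirubin enzyme that was not detected at that age, and Dnajb3 because the histone mark peaks inside the cluster lay there. The windows are chr1:88134559-88134858, chr1:88094751-88095050 and chr1:88211709-88212008 on the plus strand, and chr1:88205699-88205998 on the minus strand for Dnajb3. Capitals mark matches to the searched motifs.
Ugt1a6a: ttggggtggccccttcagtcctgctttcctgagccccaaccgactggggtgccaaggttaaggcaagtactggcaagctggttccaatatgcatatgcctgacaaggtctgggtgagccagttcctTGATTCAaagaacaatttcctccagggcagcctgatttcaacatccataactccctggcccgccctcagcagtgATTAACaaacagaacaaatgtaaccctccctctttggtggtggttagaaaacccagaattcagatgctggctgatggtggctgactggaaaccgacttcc
Ugt1a7c: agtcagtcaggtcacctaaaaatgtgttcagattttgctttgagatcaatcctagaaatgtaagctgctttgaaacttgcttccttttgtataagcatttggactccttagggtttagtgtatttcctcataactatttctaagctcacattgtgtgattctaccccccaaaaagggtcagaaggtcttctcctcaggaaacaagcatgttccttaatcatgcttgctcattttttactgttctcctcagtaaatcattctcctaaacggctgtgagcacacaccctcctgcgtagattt
Ugt1a1: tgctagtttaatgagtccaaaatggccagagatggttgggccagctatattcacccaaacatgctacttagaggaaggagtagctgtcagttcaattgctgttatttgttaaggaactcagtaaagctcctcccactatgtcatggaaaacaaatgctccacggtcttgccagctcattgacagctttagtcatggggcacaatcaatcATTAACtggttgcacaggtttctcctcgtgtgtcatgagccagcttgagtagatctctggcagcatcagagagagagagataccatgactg
Dnajb3: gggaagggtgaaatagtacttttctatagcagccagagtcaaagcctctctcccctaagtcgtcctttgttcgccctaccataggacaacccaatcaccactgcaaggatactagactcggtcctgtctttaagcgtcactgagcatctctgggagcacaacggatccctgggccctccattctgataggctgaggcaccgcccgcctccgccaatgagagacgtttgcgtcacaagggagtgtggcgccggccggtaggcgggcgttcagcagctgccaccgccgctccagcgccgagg

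Each motif was searched on both strands. The core of the xenobiotic response element, bound by the aryl hydrocarbon receptor, was taken as GCGTG and was found in 32.6% of 32544 mouse promoters of the same length. The antioxidant response element bound by NRF2 was taken as TGACNNNGC and found in 12.4% of them. For AP-1 a loose pattern, TGANTCA with any base in the middle, was found in 7.79%. A short HNF1 motif, GTTAAT, was found in 7.13%, and the TATA box, TATAAA, in 13.6%. No motif overlapped another in the windows shown. The Ugt1a6a promoter held a match to the loose AP-1 pattern at -124 and an HNF1 motif on the other strand at -50, counted from the start. The AP-1 match, TGATTCA, has T as its middle base and is not taken as a binding site. The HNF1 motif also stood on the other strand at -41 in Ugt1a1, at -91 in Ugt1a9 and at -71 in Ugt1a10, and on the same strand at -100 in Ugt1a10. The xenobiotic response core stood at -49 in Ugt1a5 and, on the other strand, at -70 in Ugt1a8. The windows of Ugt1a7c, Ugt1a2 and Dnajb3 held none of the 5 motifs. CpG dinucleotides numbered 1 to 4 in the 8 member promoters, with 3 in Ugt1a6a, against 19 in Dnajb3 and a median of 7 over all promoters.

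At P21 the cluster was counted at far higher levels in both cKO libraries than in both WT libraries. In cKO nearly all of it was assigned to the Ugt1a6 genes. In WT replicates 1 and 2, Ugt1a6a held 53.5% and 70.3% of the few counts, Ugt1a6b none, and Ugt1a7c or Ugt1a8 the rest. The 9 members summed to 380 and 521 estimated counts in cKO, against 24 and 27 in WT, or 18.3 and 26.1 CPM in cKO against 1.20 and 1.35 CPM in WT. The mean was 22.2 ± 5.52 CPM in cKO and 1.28 ± 0.11 CPM in WT (SD, n = 2 each), a ratio of 17.4 and a fitted log2 change of 4.11. The libraries low in Xist had 18.3 CPM in cKO and 1.20 CPM in WT. Those high in it had 26.1 CPM in cKO and 1.35 CPM in WT. With both cKO sums above both WT sums, any such split keeps the order, so nothing is read from it. The 2 cKO libraries differed from each other 1.43-fold and the 2 WT libraries 1.13-fold. The median over the 17407 genes tested at P21 was 0.01. In bulk tissue, fewer cells of a type and less RNA per cell cannot be told apart, and the same holds for more.

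Ugt1a6a (ENSMUSG00000054545.17), an enzyme for small phenols, had 10.6 and 16.3 CPM in the cKO libraries and 0.64 and 0.95 CPM in the WT libraries at P21. This came from 220.5 and 324.5 estimated counts in cKO, against 12.8 and 19.0 in WT. Both cKO libraries lay above both WT libraries by more than the spread within either genotype. Ugt1a6b (ENSMUSG00000090145.7), its neighbour with a closely similar first exon, had 138.8 and 172.5 estimated counts in cKO, or 6.69 and 8.65 CPM, and 0 in both WT libraries. Its mean in cKO was 7.67 ± 1.39 CPM (SD, n = 2), and a count of 0 allows up to 3 counts in each WT library, or 0.15 CPM, for counting error only. It passed the filter on low counts only through the cKO libraries.

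Ugt1a7c (ENSMUSG00000090124.7) had 15.6 and 24.0 estimated counts in cKO and 11.2 and 3.65 in WT at P21, that is 0.75 and 1.21 CPM in cKO against 0.56 and 0.18 CPM in WT. The genotypes did not overlap here either, but the gap between the nearest libraries was smaller than the spread within each genotype. Ugt1a8 had 5.15 and 0 estimated counts in cKO and 0 and 4.36 in WT, with no order between the genotypes. Ugt1a1, Ugt1a2, Ugt1a5, Ugt1a9 and Ugt1a10 were at 0 in all 4 libraries. In all, 3 of the 9 members were higher in both cKO libraries than in both WT libraries, the same 3 that passed the filter on low counts. Of all genes that passed it and were tested, 28.1% were higher in this way. Nothing is read from the count of members because this contrast chose the family.

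**Figure D1:**
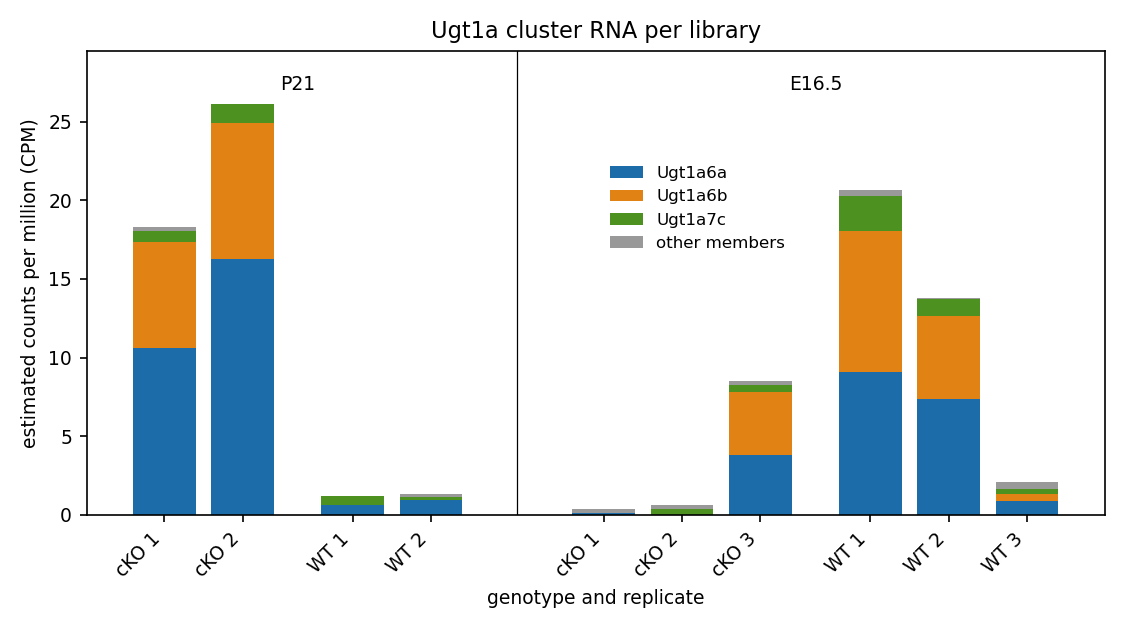
CPM of Ugt1a6a, Ugt1a6b, Ugt1a7c and the other members in each RNA library (stacked bars), cKO left of WT at each age. The height of a bar is the sum of all 9 members. At P21 the cKO sums of 18.3 and 26.1 CPM stand clear of the WT sums of 1.20 and 1.35 CPM, while at E16.5 cKO spans 0.39 to 8.55 CPM and WT 2.10 to 20.6 CPM, so that the genotypes overlap.

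How reads were split between members is an estimate, since all members share their downstream exons. Of the 35 member values above 0 over the 10 libraries, 33 were not whole numbers, yet the 9 values summed to a whole number, within 0.01, in all 10 libraries. The sum is therefore the firmer quantity, and single members may trade counts with each other. The ratio of Ugt1a6b to Ugt1a6a estimated counts was 0.63 and 0.53 in the cKO libraries at P21. At E16.5 it was 1.04 in cKO replicate 3, and 0.99, 0.72 and 0.46 in WT replicates 1, 2 and 3. The pseudogenes of the span that were counted had at most 2 estimated counts in any library, and no count was found for Gm38421. No source used here says whether counting used strand, so reads from overlapping genes on the minus strand, such as Dnajb3, cannot be told apart from the cluster's by strand.

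At E16.5 no difference between the genotypes passed the test, and the libraries of one genotype differed more than the genotypes did. The cluster summed to 7, 11 and 171 estimated counts in cKO and to 392, 269 and 41 in WT, or 0.39, 0.62 and 8.55 CPM in cKO and 20.6, 13.8 and 2.10 CPM in WT. The highest cKO library lay above the lowest WT library, and the highest and lowest libraries differed 21.8-fold in cKO and 9.81-fold in WT. The mean was 3.19 ± 4.64 CPM in cKO and 12.2 ± 9.37 CPM in WT (SD, n = 3 each). The log2 change of the sum was -1.92 ± 1.30 (SE), with an unadjusted p of 0.189 and an adjusted p of 0.429 in edgeR's quasi-likelihood test over all genes. An exact two-sided permutation test of the difference in mean CPM, -8.99, gave p = 0.2, where the smallest p that 3 against 3 allows is 0.1.

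Ugt1a6a had 0.12, 0 and 3.83 CPM in cKO and 9.07, 7.36 and 0.92 CPM in WT at E16.5, with a log2 change of -2.10 ± 1.54 (SE, adjusted p = 0.461, edgeR). Ugt1a6b had 0, 0 and 4.003 CPM in cKO and 8.97, 5.32 and 0.42 CPM in WT, with a log2 change of -1.85 ± 1.75 (SE, adjusted p = 0.565, edgeR). The 2 genes thus had the same order of libraries apart from ties at or near 0, with cKO replicates 1 and 2 lowest and WT replicates 1 and 2 highest. The authors' deposited table gives log2 changes of -2.11 for Ugt1a6a (adjusted p = 0.576) and -1.86 for Ugt1a6b (adjusted p = 0.739) at this age. Of the 2 members that passed the filter on low counts, edgeR called 0 (0 also at an unadjusted p under 0.05, and 0 with DESeq2), where 0.124% of all 16958 genes tested were called and 20.6% had an unadjusted p under 0.05. Both members that passed the filter overlapped between the genotypes, where 29.2% of all genes tested did not overlap, and nothing is read from 2 members that share reads. The members not tested overlapped too, most of them at or near 0.

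Members under that filter at E16.5 stayed at low counts. Ugt1a7c had 0, 6.73 and 9.01 estimated counts in cKO and 42.7, 20.4 and 6.21 in WT, which follows the same order as the Ugt1a6 genes in WT. Ugt1a8 ranged over 4.27 to 5.20 estimated counts in cKO and 0 to 4.61 in WT. Ugt1a1, Ugt1a9, Ugt1a5 and Ugt1a10 each had 1.91 to 2.91 estimated counts in a single WT library and 0 in all others, at or below the level of 3 counts that cannot be set apart from 0. Ugt1a2 was at 0 in all 10 libraries of both ages and was not detectable at this depth.

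The E16.5 difference rested on which libraries were compared. Without cKO replicate 3 the log2 change of the sum was -4.57 (adjusted p = 0.116, edgeR). Among libraries with high Xist, the sum was 0.39 and 0.62 CPM in cKO and 20.6 and 13.8 CPM in WT, whereas the single libraries with low Xist had 8.55 CPM in cKO and 2.10 CPM in WT, the opposite order. With Xist class as a covariate the log2 change was -3.13 (adjusted p = 0.453, edgeR).

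Markers of the choroid plexus, the epithelium that secretes cerebrospinal fluid next to the hippocampus, moved with the cluster across the E16.5 libraries. Its 8 markers summed to 2.92, 40.04 and 2540 CPM in cKO and to 4903, 3287 and 27.64 CPM in WT, with Folr1 at 0 in cKO replicate 1. Ttr, the transthyretin gene that dominates choroid plexus RNA, had 0.95, 27.1 and 2336 CPM in cKO and 4566, 3070 and 16.3 CPM in WT. The 3 libraries of this age above 1000 CPM of these markers were the 3 with its highest cluster sums. Those 3 were cKO replicate 3 at 8.55 CPM of the cluster and WT replicates 1 and 2 at 20.6 and 13.8 CPM. The 3 libraries low in these markers were cKO replicates 1 and 2 at 0.39 and 0.62 CPM and WT replicate 3 at 2.10 CPM.

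Ependyma, the ciliated lining of the ventricles, showed a similar order at E16.5, its 6 markers summing to 7.42, 12.8 and 45.2 CPM in cKO and 63.6, 67.0 and 21.7 CPM in WT. Most of each sum was Foxj1, at 6.2, 11.1 and 40.6 CPM in cKO and 53.55, 59.8 and 18.9 CPM in WT. Rarres2 did not follow this order, with 0.80, 0.51 and 0.69 CPM in cKO and 5.64, 2.03 and 1.72 CPM in WT. Between 1 and 2 of the 6 markers were at 0 in every E16.5 library, among them Tmem212 in all but WT replicate 3. Markers of meningeal fibroblasts summed to 63.3, 84.7 and 224.0 CPM in cKO and 2642, 356.6 and 391.6 CPM in WT, with all 8 lower at an unadjusted p under 0.05 and 0 after adjustment (edgeR, median log2 change -3.48). Of all genes tested, 20.6% had such an unadjusted p, in either direction. The same measure was met, all lower, by 6 of 6 microglia, 6 of 8 endothelial, 3 of 5 mural and 2 of 6 astrocyte markers. It was met by 0 of 5 oligodendrocyte, 0 of 5 erythrocyte and 0 of 7 choroid plexus markers. Microglia markers summed to 36.9 to 56.4 CPM in cKO and 77.45 to 132.9 CPM in WT. The log2 change of the sum was -2.04 within the libraries low in choroid plexus markers and -0.98 within those high in them. Each of these fits had 1 library in 1 of the genotypes and cannot measure the part of any cell type. The part of these cells in the E16.5 values of the cluster was not tested.

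At P21 the choroid plexus markers did not follow the cluster. They summed to 3634 and 1038 CPM in cKO and 1427 and 1196 CPM in WT, so that cKO replicate 2, with the highest cluster sum of all 10 libraries, had the lowest choroid plexus sum at this age. Ependyma markers summed higher in both cKO libraries, at 34.7 and 29.0 CPM in cKO and 18.6 and 15.97 CPM in WT. Of these, 2 of 6 were called higher, Foxj1 (log2 change 1.22) and Tmem212 (1.80), while Dnah5 alone was lower (-0.35, adjusted p = 0.531, edgeR). Over all genes tested at P21, 2.81% were called higher in cKO and 3.91% lower, the shares beside which the calls below stand too. Meningeal markers summed to 689.6 and 614.7 CPM in cKO and 418.8 and 510.4 CPM in WT, and endothelial markers to 413.8 and 427.7 CPM in cKO and 353.4 and 318.6 CPM in WT. The endothelial list was mixed, with Slc2a1 (180.0 CPM in cKO, 106.3 CPM in WT), Pecam1 and Cldn5 called higher and Itm2a (log2 change -1.07) called lower. Markers of striatal neurons, a nearby brain region, summed to 155.6 and 248.6 CPM in cKO and 93.9 and 97.9 CPM in WT, with 3 of 9 called higher and 0 lower. Oligodendrocyte markers were lower in cKO, at 3712 and 3485 CPM in cKO and 5836 and 6198 CPM in WT, with 6 of 6 past the test. Microglia markers summed to 150.7 and 154.2 CPM in cKO and 267.6 and 244.2 CPM in WT, with 5 of 6 called lower. Astrocyte markers summed to 1224 and 1238 CPM in cKO and 1197 and 1163 CPM in WT, with 1 called higher and 3 lower. The part of these cells in the P21 values was not tested. Hepatocyte markers, from the tissue with the best known Ugt1a output, summed to at most 1.61 CPM in any library.

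**Figure D2:**
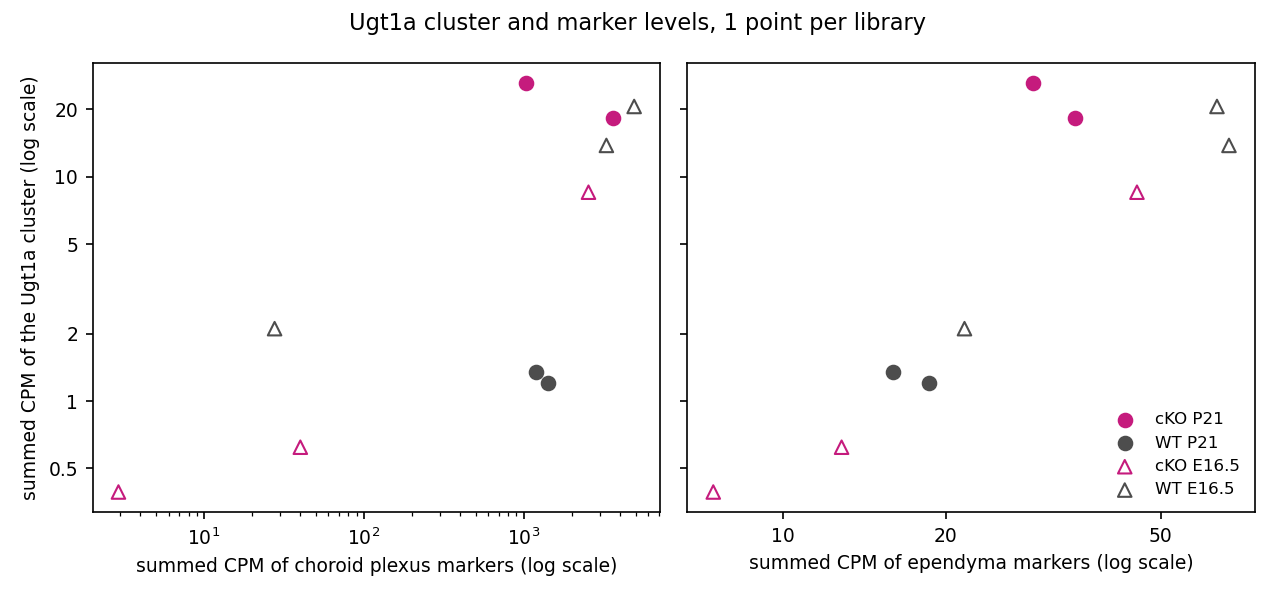
Summed CPM of the 9 Ugt1a members (vertical axis, log scale) against the summed CPM of choroid plexus markers (left, log scale) and of ependyma markers (right, log scale), 1 point per RNA library. At E16.5 (triangles) the cluster is high in the libraries high in either list, while at P21 (circles) both cKO libraries lie above both WT libraries over an overlapping range of choroid plexus marker levels.

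The genes whose profile over the 10 libraries was nearest to the cluster sum were Fbln5, Ak7, Wdr86, Wdr63 and 2410004P03Rik, among 17040 genes compared by the root mean square difference of centred log2(CPM + 0.5). Their differences were 0.68, 0.76, 0.84, 0.84 and 0.88, against a median of 1.88 over all genes and 1.82 for a flat profile. Fbln5, which encodes an elastic fibre protein, had 26.6 and 14.0 CPM in cKO and 3.81 and 3.41 CPM in WT at P21. At E16.5 Fbln5 had 0.56, 0.96 and 7.25 CPM in cKO and 23.9, 8.63 and 4.10 CPM in WT. Ak7 and Wdr63 are known genes of motile cilia. Ak7 had 10.7 and 6.12 CPM in cKO and 2.05 and 1.45 CPM in WT at P21, and 0.34, 0.34 and 4.75 CPM in cKO and 7.79, 6.52 and 0.36 CPM in WT at E16.5. These genes were picked for their likeness, and their P21 gap between genotypes was narrower than the cluster's.

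**Figure D3:**
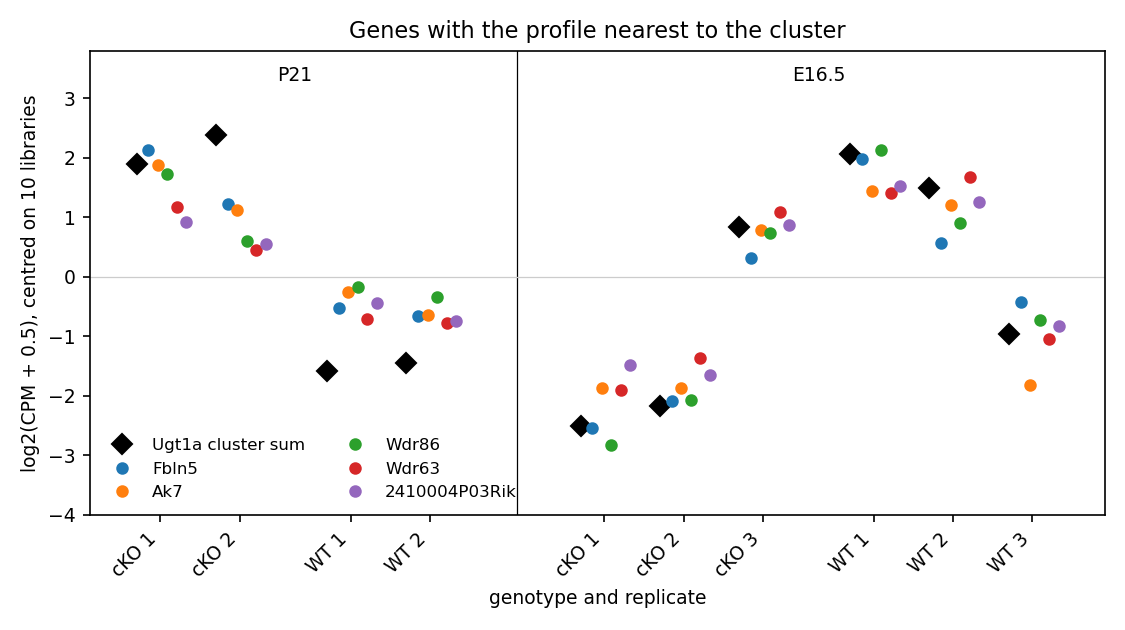
Log2(CPM + 0.5), centred on each gene's mean over the 10 RNA libraries, for the cluster sum (diamonds) and the 5 nearest genes (circles), by library. All 6 are above their mean in both cKO libraries at P21 and in cKO replicate 3 and WT replicates 1 and 2 at E16.5, and below it in the other libraries.

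In the ChIP-seq of 3-week-old hippocampus, the authors' peak lists held no peak at the start of any member. Within the span and 10 kb on either side, H3K4me3, a mark of active promoters, had 1 peak in cKO and 2 in WT, covering 1017 bp in cKO and 739 bp in WT, all at Dnajb3. The cKO peak at chr1:88205091-88206107 had a fold enrichment of 9.31 and a pileup of 24. The WT peaks at chr1:88205262-88205819 and chr1:88205881-88206061 had fold enrichments of 12.8 and 7.00 and pileups of 33.8 and 16.4. H3K27ac, found at active enhancers as well as promoters, and H3K27me3, the Polycomb mark of silenced genes, had 0 peaks there in either genotype. Fold enrichments are the authors' own values for each peak, the lists come from single libraries with no replicate check, and no difference between genotypes can be tested.

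The peaks nearest to the members lay well away from the Ugt1a6 starts. Over the 9 starts the nearest H3K4me3 peak was 4.5 to 94.5 kb away in cKO and 4.7 to 94.6 kb in WT, and the nearest H3K27ac peak 46.8 to 126.2 kb in cKO and 46.9 to 203.4 kb in WT. The nearest H3K27me3 peak was 347.2 to 503.8 kb away in cKO and 789.6 to 946.1 kb in WT. For comparison, 68.5% of 343 genes higher in cKO at P21 had an H3K4me3 peak at the promoter in cKO and 60.9% in WT, and of all 12217 tested genes with a promoter sequence 83.8% had one in cKO and 82.1% in WT. The cKO lists were longer for all 3 marks, with 24065 H3K27ac peaks in cKO and 13006 in WT, and 15659 H3K27me3 peaks in cKO and 4124 in WT, so a peak found in one list only is no measure of a change.

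Within 100 kb of the cluster, peaks lay at Usp40 and at Hjurp, and none at Mroh2a, which lies between the cluster and Hjurp. The start of Usp40, a deubiquitinase gene, had H3K4me3 at a fold enrichment of 14.9 in cKO and 16.2 in WT, and H3K27ac at 12.5 in cKO and 6.74 in WT. At Hjurp, which encodes the chaperone of the centromeric histone CENP-A, H3K4me3 had its highest fold enrichment at 16.4 in cKO and 8.27 in WT, with pileups in the opposite order, 104 in cKO and 147.9 in WT. H3K27ac had a peak with a fold enrichment of 5.02 in the cKO list and none in the WT list, at chr1:88277112-88277481.

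**Figure D4:**
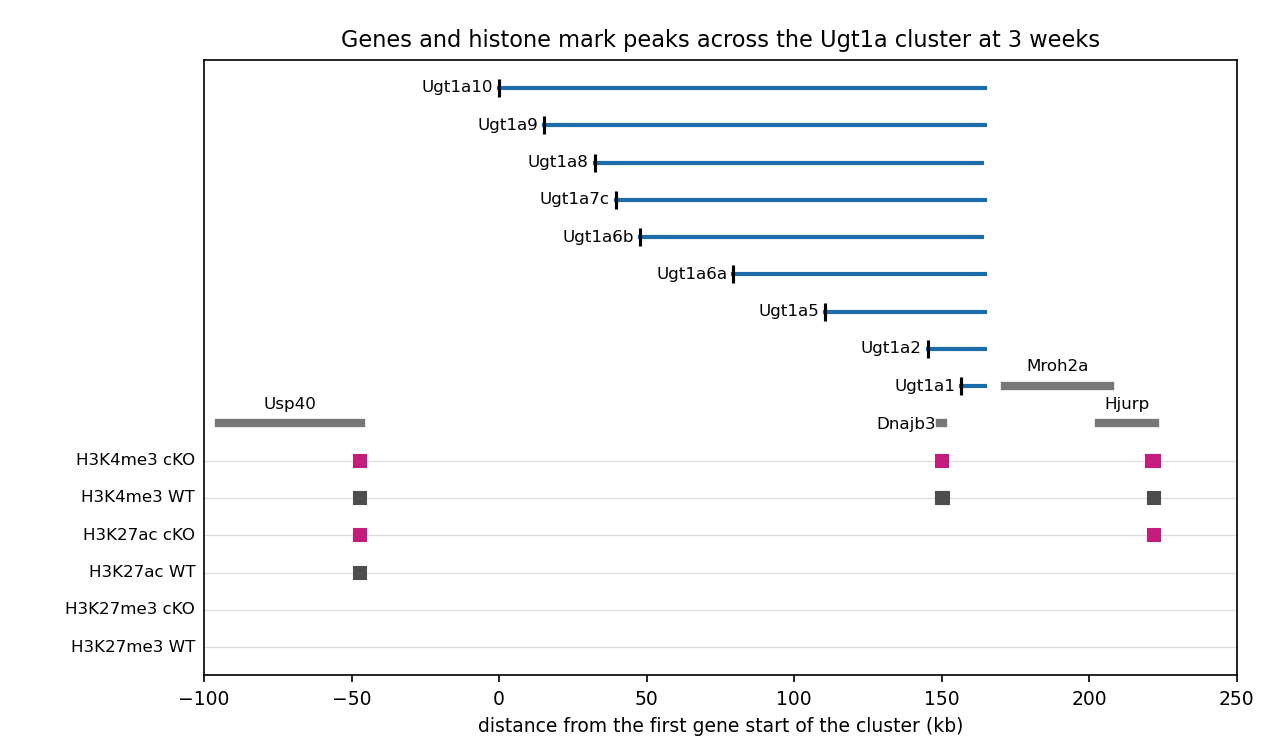
The 9 Ugt1a genes (blue lines, black ticks at their starts) and neighbouring genes (grey bars) along chromosome 1, in kb from the start of Ugt1a10, with peak positions of each mark below (squares mark positions, not widths). The only peaks inside the cluster are those of H3K4me3 at Dnajb3 in both genotypes and none stands at a Ugt1a start.

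Of 33 annotated genes within 500 kb on either side, 27 were in the count table and 11 were tested at P21, where 6.72% of all genes were called, 2.81% as higher in cKO and 3.91% as lower. None of the 11 was called by edgeR or by DESeq2, a count that a share of 6.72% would also give, and 1 had an unadjusted p under 0.05 with edgeR, where 24.9% of all genes had one. One neighbour was called without cKO replicate 2 and 1 with no filter. Their median log2 change was 0.14, beside 0.01 over all genes. Usp40 came closest, with 23.1 ± 2.61 CPM in cKO and 15.7 ± 1.16 CPM in WT (SD, n = 2 each) and a log2 change of 0.56 (adjusted p = 0.0589, edgeR). Dnajb3, inside the cluster, had 0.93 ± 0.25 CPM in cKO and 0.78 ± 0.25 CPM in WT (log2 change 0.26, adjusted p = 0.768, edgeR). Hjurp (-0.18), Mroh2a (-0.48), Dgkd (-0.13) and Sag (0.66) had adjusted p of 0.253 to 0.667 on the same test. At E16.5, 9 were tested and edgeR called 0 (4 at an unadjusted p under 0.05, 1 with DESeq2), with a median log2 change of 0.01, beside -0.01 over all genes. Of all genes tested by edgeR at E16.5, 0.124% were called and 20.6% had an unadjusted p under 0.05.

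Of 13 genes of the other Ugt families, 1 was tested at P21 and it fell. Ugt8a, a ceramide galactosyltransferase that makes the galactolipids of myelin and transfers no glucuronic acid, had 17.7 ± 0.96 CPM in cKO and 71.5 ± 4.17 CPM in WT (log2 change -2.01 ± 0.11 SE, adjusted p = 0.00049, edgeR), beside the lower oligodendrocyte markers given above, whose part was not tested. The other 12, among them the Ugt2 genes, had at most 2 estimated counts in any library. At E16.5 Ugt8a had 0.99 ± 0.45 CPM in cKO and 1.21 ± 0.33 CPM in WT (adjusted p = 0.709, edgeR).

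All 6 genes that supply UDP-glucuronic acid, the sugar donor of these enzymes, were tested at P21, and 1 fell (median log2 change -0.09). Ugp2, the enzyme that makes UDP-glucose, averaged 49.8 CPM in cKO and 74.3 CPM in WT (log2 change -0.58 ± 0.10 SE, adjusted p = 0.0183, edgeR), a call lost without WT replicate 1 (adjusted p = 0.0964) or WT replicate 2 (0.0935), while 2 of the 6 were called without cKO replicate 2. Of 10 genes for heme and bilirubin handling and for glucuronide export and hydrolysis, 9 were tested and edgeR and DESeq2 called 0 (1 higher at an unadjusted p under 0.05, median 0.21). Without cKO replicate 2 edgeR called 2 of them, and 1 without cKO replicate 1 or with no filter. The nearest was Abcc4, an exporter of organic anions, at 20.02 ± 0.66 CPM in cKO and 13.6 ± 1.76 CPM in WT (log2 change 0.55, adjusted p = 0.0669, edgeR).

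The pathways known to induce the locus had 1 and 0 calls at P21, where 6.72% of all genes were called, so nothing particular to them is read from these counts. Of 11 aryl hydrocarbon receptor pathway genes, 9 were tested and 1 fell (median log2 change -0.24), namely Tiparp, a target and repressor of the receptor, with a log2 change of -0.67 ± 0.16 (SE, adjusted p = 0.0459, edgeR). That call was lost without cKO replicate 2 (adjusted p = 0.0671) or WT replicate 2 (0.298) and under upper-quartile scaling (0.0617), and the list had 2 calls without cKO replicate 1. All 16 NRF2 pathway genes were tested, and edgeR and DESeq2 called 0 (unadjusted p below 0.05: 4 higher, 2 lower; median 0.14). Without cKO replicate 1 edgeR called 3 of them, and with no filter 1. The nearest to the threshold, Txnrd1, a thioredoxin reductase, had 44.0 ± 2.63 CPM in cKO and 57.3 ± 0.73 CPM in WT (log2 change -0.38, adjusted p = 0.0716, edgeR). Nqo1, a target of both pathways, had a log2 change of 0.67 (adjusted p = 0.199, edgeR).

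Of 9 nuclear receptors and liver regulators, 3 were tested at P21, 1 rose and 1 fell (median log2 change -0.54). Rxra, the common partner of many nuclear receptors, averaged 48.4 CPM in cKO and 33.9 CPM in WT (0.51 ± 0.11 SE, adjusted p = 0.034, edgeR). Nr3c1, the glucocorticoid receptor, averaged 48.1 CPM in cKO and 69.8 CPM in WT (-0.54 ± 0.11 SE, adjusted p = 0.0305, edgeR). Both calls were lost without WT replicate 1 (adjusted p of 0.139 for Rxra and 0.053 for Nr3c1) or WT replicate 2 (0.258 for Rxra and 0.24 for Nr3c1). Of 12 other conjugating enzymes, 11 were tested and 1 rose (median 0.05), the phenol sulfotransferase Sult1a1, at 30.1 ± 0.58 CPM in cKO and 11.02 ± 2.51 CPM in WT (1.45 ± 0.17 SE, adjusted p = 0.00507, edgeR). This list had 2 calls without cKO replicate 1, without cKO replicate 2 or with no filter.

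At E16.5 edgeR called 0 genes in each of these 7 lists. Of all 16958 genes tested, 0.124% were called and 20.6% had an unadjusted p under 0.05. On that unadjusted measure, 0 of 1 gene tested was lower in cKO for the other Ugt families. It was 1 of 6 for the sugar donor genes, 4 of 9 for heme, bilirubin and export, and 1 of 8 for the aryl hydrocarbon receptor pathway. For the nuclear receptors it was 1 of 2 and for other conjugating enzymes 4 of 10, and none of these lists had a higher gene. The NRF2 pathway, with 15 tested, had 1 higher and 5 lower on the same measure. Over all 33403 genes in its test, DESeq2 called 352 higher and 714 lower. DESeq2 called 1 higher and 3 lower in the NRF2 pathway, 2 lower each for heme, bilirubin and export and for other conjugating enzymes, 1 lower each for the receptor pathway and the nuclear receptors, and 0 in the other lists. Median log2 changes were -0.86 for heme, bilirubin and export, -0.58 for other conjugating enzymes and -0.27 for NRF2, beside -0.01 over all genes.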

How the data were processed

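RNA values are estimated counts per gene, 1 deposited table per age, which the authors made with Salmon 1.0.0 (build GRCm38), per the submitters' processing notes. No source used here says how transcripts were combined into genes. Log2 changes and p-values of the authors' deposited tables come from DESeq2 1.26.0, per the same notes, and scores of mean level in them were not used here. Peaks were called per library against the same genotype's input with MACS 2.2.7.1, in narrow mode with q up to 0.01, per the file headers (the notes name MACS2 2.2.5, and Bowtie2 2.3.5.1 for alignment). Deposited peak columns hold a pileup signal, a fold enrichment ratio and −log10 p and q.

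Estimated counts were rounded, and each age was fitted by itself in edgeR 4.0.16 under R 4.3.3: filterByExpr (minimum count 10), TMM, quasi-likelihood F test, Benjamini-Hochberg adjustment over all genes, threshold 0.05. CPM values use TMM library sizes. Standard errors are approximate, from the F statistic. DESeq2 1.42.0, other scalings, no filter, a replicate block, an Xist covariate, a joint fit and leaving out each library were alternatives. For the sum, members were replaced by 1 total. The RNA comparisons were tested on simulated counts, where 14 of 152 calls at P21 and 13 of 124 at E16.5 were false. Of simulated 2-fold changes, 56% were recovered at P21 and 38% at E16.5, and of 4-fold changes 82% and 73%. Coordinates, strand and promoters came from RefSeq tables (GRCm38.p6). A peak counted at a 1 bp overlap.

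The members, lists and tests were chosen with earlier results of these data known. Genes outside the cluster were named by a rule: the lowest adjusted p past the threshold in each list or the closest gene, the nearest neighbours, and the 5 nearest profiles. Nqo1, the marker genes and the flanking peaks were named after their values were seen. RNA replicates are called biological but no animals are named, so p-values measure the spread between these libraries.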

Additional observations from a re-analysis of the deposited data

How the results depend on the processing

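The log2 change of the cluster sum at P21 was 4.10 to 4.16 under every other scaling, filter, tool and fit tried and 3.83 to 4.35 when each library was left out. At E16.5 the sum was lower in cKO and not past the threshold in 13 alternatives (scalings, no filter, DESeq2, block, Xist covariate, joint fit and each library left out), with log2 changes of -4.57 to -1.29 when each library was left out and adjusted p of 0.116 to 0.715 over all 13. The peak counts over the cluster did not change with a stricter q-value limit, other windows or another overlap. Deviations of same-numbered libraries from different genotypes gave r of -0.01 at P21 and -0.26, -0.06 and -0.53 at E16.5. At P21 every pairing gave the same r apart from its sign, so that value carries no information on pairing. With so few libraries per genotype, the E16.5 values cannot decide whether the numbers pair libraries either. Same-numbered libraries did share their Xist class at both ages. With a replicate block the sum changed by 4.10 at P21 and -3.13 at E16.5 (adjusted p = 0.563, edgeR), and calls over all genes were 361 higher and 501 lower in cKO at P21 and 0 and 0 at E16.5. The block ended the P21 calls of Tiparp (adjusted p = 0.0644), Rxra (0.0806) and Nr3c1 (0.0697). The joint fit of all 10 libraries ended those 3 and that of Sult1a1 (adjusted p = 0.504).

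Over all genes, 489 were higher and 680 lower in cKO at P21 (41.8% higher), 570 and 519 with upper-quartile scaling (52.3%), 921 and 1228 with no filter, and 155 and 350 in the joint fit. Leaving out a library gave 138 (without WT replicate 2) to 1244 (without cKO replicate 1) higher and 293 to 1627 lower. At E16.5, 2 were higher and 19 lower, 24 and 105 with no filter, 352 and 714 with DESeq2, 1 and 3 with the Xist covariate, 32 and 146 in the joint fit, and 0 to 4 higher and 0 to 13 lower without a library, with 0 in both directions without WT replicate 1 or WT replicate 3. The cause of these shifts was not tested. Few libraries per genotype, low counts of single members and the spread between libraries all limit the E16.5 comparison.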
